A study of Mus musculus with 60 samples.

Results

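H4K8ac, the acetylation of lysine 8 on histone H4, was compared between the left and the right hippocampus of exercised mice, using the pooled peak list of each side. The left list held 12168 peaks and the right list 13715, together 25883 of the 155961 H4K8ac peaks in the 6 lists of this mark and of the 256375 lines in the 12 deposited lists. The members were every peak of the lists labelled H4K8ac, exercised, separate isolation, left or right, so no peak was picked by a measured value. The lists to compare were chosen with earlier results of these data known. All samples were hippocampal nuclei of male Emx1-NuTRAP mice, whose Emx1-driven Cre switches on tags for nuclei and ribosomes in forebrain excitatory neurons and other cells of the Emx1 lineage. The mark was mapped by CUT&RUN-seq, in which an antibody guides a nuclease to the modified histone and the freed fragments are sequenced. The labels put 60 samples in 18 groups. Each side had 3 H4K8ac samples, whole left or whole right hippocampus, from mice given free access to a running wheel between postnatal days 21 and 41 (exercised), with no memory training time given in the labels. Tissue was taken the day after that period, in adolescence. Per the methods, as many exercised H4K8ac libraries of the separate isolation as one side had samples were left out for a high false discovery rate. Their sides are not given in the sources used here, so either list may rest on fewer than 3 libraries and the lists on unequal numbers of them. The sedentary mice had the same genotype and age without a wheel, again with 3 samples per side, and the simultaneous isolation (SIT) lists, from 4 samples per condition, took nuclei and RNA from one preparation. In the separate isolation one hippocampus of a mouse gave nuclei and the other gave RNA, so the left and right lists came from different mice, and side and mouse cannot be told apart. Each list is a single pooled value of its group without sample of origin, peak height or read depth. There was therefore no replicate spread and no test, and the 95% intervals below (Wilson for a share, Newcombe for a difference) express counting error, over peaks or genes, and nothing else.

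Acetylation of the histone H4 tail loosens chromatin and is read by bromodomain proteins, and H4K8ac marks active promoters and enhancers. It is deposited by acetyltransferases and removed by histone deacetylases, and in the hippocampus histone acetylation is known to accompany learning and the response to physical exercise. The rodent hippocampus is paired, and its sides are known to differ in the placement of the NMDA receptor subunit GluN2B at CA1 synapses, according to whether the input comes from the left or the right CA3.

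Examples of the regions behind the comparison are given first as genomic sequence, with the central 300 bp of 8 peaks from GRCm38 (mm10), plus strand, 5′ to 3′. Capitals mark CG dinucleotides and any match to 1 of 5 motifs searched below. Celf2, an RNA-binding regulator of splicing (chr2:6883993-6884292), and Anks1b, a postsynaptic density protein (chr10:90577773-90578072), were promoter peaks of the left list that a right peak overlapped, and Stmn2, a neuronal regulator of microtubules (chr3:8511596-8511895), was the widest of the 5 promoter pairs with the closest edges. Elmo2, an activator of Rac signalling (chr2:165310385-165310684), and Parm1, a mucin-like membrane protein (chr5:91518742-91519041), had promoter peaks in the left list only. Cntn4, a neuronal adhesion molecule (chr6:106118400-106118699), and Cblb, a ubiquitin ligase (chr16:52030489-52030788), had promoter peaks in the right list only. The last window lies in a left peak at -17175 bp from the start of Fos, a subunit of the AP-1 transcription factor (chr12:85455411-85455710). Stmn2 and Fos were added to this set after their values were seen.
Celf2: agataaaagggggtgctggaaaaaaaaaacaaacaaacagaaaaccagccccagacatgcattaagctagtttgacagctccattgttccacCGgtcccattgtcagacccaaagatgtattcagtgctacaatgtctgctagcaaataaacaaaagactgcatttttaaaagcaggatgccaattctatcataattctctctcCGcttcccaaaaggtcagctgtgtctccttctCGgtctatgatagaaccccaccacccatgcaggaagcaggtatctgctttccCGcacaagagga
Anks1b: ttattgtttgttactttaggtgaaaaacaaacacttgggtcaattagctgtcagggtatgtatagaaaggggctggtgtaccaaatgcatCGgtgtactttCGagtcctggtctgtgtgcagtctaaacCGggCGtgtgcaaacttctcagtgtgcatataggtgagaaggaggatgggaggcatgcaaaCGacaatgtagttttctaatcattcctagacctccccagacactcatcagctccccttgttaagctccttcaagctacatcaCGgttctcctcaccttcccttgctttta
Stmn2: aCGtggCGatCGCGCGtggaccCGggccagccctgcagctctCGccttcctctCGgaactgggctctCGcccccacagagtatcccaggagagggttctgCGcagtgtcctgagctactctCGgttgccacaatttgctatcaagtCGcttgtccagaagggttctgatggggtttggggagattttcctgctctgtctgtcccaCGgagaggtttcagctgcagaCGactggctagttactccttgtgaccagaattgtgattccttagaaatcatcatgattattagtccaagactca
Elmo2: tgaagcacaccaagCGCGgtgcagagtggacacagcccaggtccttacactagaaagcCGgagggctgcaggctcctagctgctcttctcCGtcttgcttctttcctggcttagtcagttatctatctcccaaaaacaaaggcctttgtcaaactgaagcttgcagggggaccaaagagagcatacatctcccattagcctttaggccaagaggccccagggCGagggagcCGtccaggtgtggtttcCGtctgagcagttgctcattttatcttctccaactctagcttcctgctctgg
Parm1: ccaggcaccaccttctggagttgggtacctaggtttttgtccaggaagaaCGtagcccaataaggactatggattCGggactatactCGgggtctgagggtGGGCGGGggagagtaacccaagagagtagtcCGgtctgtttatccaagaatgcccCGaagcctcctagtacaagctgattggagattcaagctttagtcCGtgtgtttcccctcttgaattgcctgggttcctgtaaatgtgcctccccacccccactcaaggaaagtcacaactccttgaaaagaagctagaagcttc
Cntn4: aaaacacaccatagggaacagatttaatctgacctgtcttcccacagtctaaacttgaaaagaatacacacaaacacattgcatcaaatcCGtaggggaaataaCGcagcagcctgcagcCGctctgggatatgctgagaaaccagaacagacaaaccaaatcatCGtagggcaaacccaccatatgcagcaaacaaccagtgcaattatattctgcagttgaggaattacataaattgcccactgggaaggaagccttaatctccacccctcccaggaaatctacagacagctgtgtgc
Cblb: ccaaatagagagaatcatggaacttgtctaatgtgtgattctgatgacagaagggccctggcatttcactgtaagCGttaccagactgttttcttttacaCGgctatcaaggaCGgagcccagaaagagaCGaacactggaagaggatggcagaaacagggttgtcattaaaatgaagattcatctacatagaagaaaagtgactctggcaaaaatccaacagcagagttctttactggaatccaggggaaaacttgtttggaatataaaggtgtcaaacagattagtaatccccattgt
Fos: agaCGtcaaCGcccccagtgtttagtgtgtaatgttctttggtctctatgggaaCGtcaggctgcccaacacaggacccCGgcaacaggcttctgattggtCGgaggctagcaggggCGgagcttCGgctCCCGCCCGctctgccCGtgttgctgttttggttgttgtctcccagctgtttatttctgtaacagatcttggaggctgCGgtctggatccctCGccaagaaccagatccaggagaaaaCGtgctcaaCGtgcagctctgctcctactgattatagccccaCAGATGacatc
The windows near Stmn2 and Fos each held 14 CG dinucleotides, those of Elmo2 and Parm1 each 7, that of Anks1b 6, and those of Celf2, Cntn4 and Cblb each 4. The Parm1 window held the GC box GGGCGGG, and the Fos window held the same box on the other strand and 1 E-box. The other 6 windows held none of the 5 motifs. At Stmn2 the left peak (chr3:8509345-8514145, 4801 bp) and the right peak (chr3:8509368-8514123, 4756 bp) covered each other by at least 99.1%. At Celf2 the left promoter peak (1780 bp) was covered from one end by a right peak (chr2:6880244-6884674), with a reciprocal overlap of 32.1%.

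Some lists changed along the genome, which bears on everything that follows. In genome order, the share of left peaks dropped at chromosome 18: from position 76139235 of that chromosome through chromosomes 19 and X, the left list held 52 peaks, 0.427% of the list, and the right list 345 peaks, 2.52%. The other 4 H4K8ac lists held between 2.28 and 2.62% of their peaks there. On chromosome 19 the left list held 43 peaks and the right list 240, and on chromosome X 1 and 41. The 52 left peaks were wide, with a median of 2585 bp against 1767 bp in the rest of the list, and none was narrower than 1653 bp. A right peak overlapped 73.1% of these left peaks (95% interval 59.7 to 83.2%), whereas a left peak overlapped 12.2% of the right peaks of that stretch (9.13 to 16.0%). Whether the left list is complete in this stretch is not known, so a gene there that is listed on the right only is not thereby shown to lack the mark on the left. In 2 of the comparison lists the width of peaks changed near the end of the genome. Chromosome medians in exercised SIT were 1639 to 1941 bp up to chromosome 17 and 1389 to 1465 bp from chromosome 18, and those in sedentary left were 1382.5 to 1631 bp up to chromosome 14 and 1135 to 1212 bp from chromosome 15. These changes were identified from the lists, their cause was not tested, and results are given without the sparse stretch, or on chromosomes 1 to 14 alone, where that moved them.

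**Figure D1:**
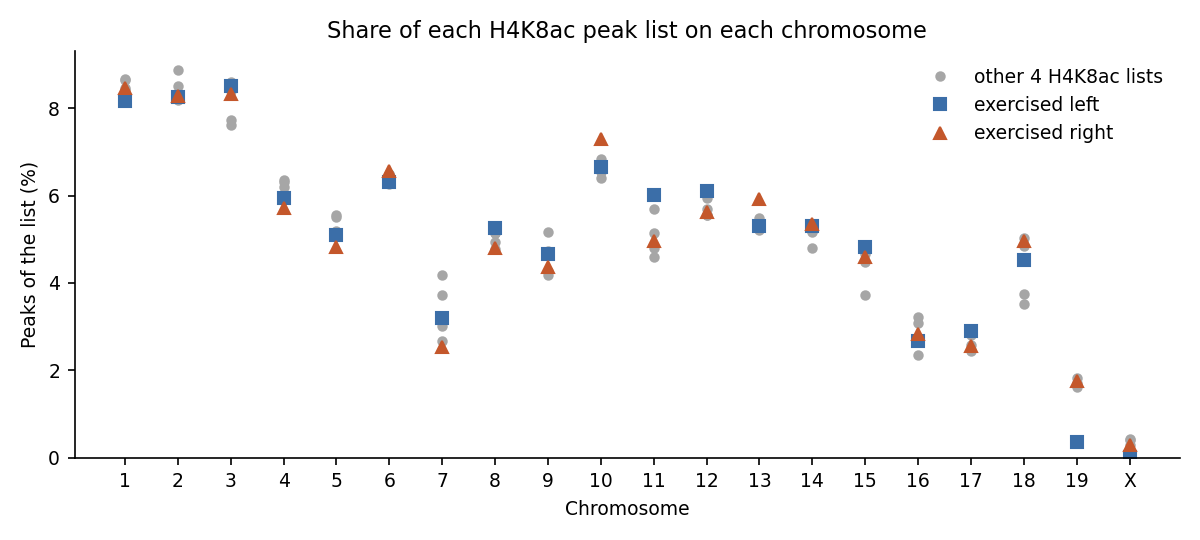
Share of each H4K8ac peak list, in percent of its peaks, on chromosomes 1 to 19 and X. Squares are exercised left, triangles exercised right and grey points the other 4 lists. On chromosome 19 the left list lies at 0.353% and the right list at 1.75%, with the other lists between 1.62 and 1.83%.

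Side by side, the left list held fewer but wider peaks. The ratio of left to right peaks was 0.887, the ratio of genes listed was 0.881 (5101 against 5792), and the ratio of covered length was 1.05 (25.8 against 24.5 Mb). The median width was 1769.5 bp on the left (quartiles 1471 and 2359 bp) and 1566 bp on the right (1320 and 1974 bp), a difference of 203.5 bp. Peaks of 5 kb or wider made up 2.72% of the left list (331 peaks) and 0.955% of the right list (131 peaks). In the sedentary lists the same ratio of peak numbers was 1.45, that of genes 1.23, and the difference in median width -427 bp. Of these measures, only the covered length was greater on the left in both conditions, with a ratio of 1.18 in sedentary mice. The difference between the conditions was not tested.

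Peaks of both sides fell mostly in introns, promoters and distal intergenic DNA, in nearly the same proportions. Promoters, taken as 3 kb on either side of a start site, held 25.2% of left peaks (24.5 to 26.0%) and 26.5% of right peaks (25.8 to 27.2%), a difference of -1.25 percentage points (-2.32 to -0.181). The promoter difference became 0.592 points (-0.907 to 2.09) in the widest 50% of each list and -0.0440 points when bases in place of peaks were counted. Introns held 37.8% of left and 36.9% of right peaks, a difference of 0.926 points (-0.255 to 2.11), and distal intergenic DNA 25.9 and 26.6%, a difference of -0.747 points (-1.82 to 0.328). The 3′ UTR class held 2.90% of left peaks (353) and 2.30% of right peaks (315), a difference of 0.604 points (0.217 to 0.998) that kept its sign under every alternative run. In the sedentary lists the 3′ UTR difference was 0.230 points (-0.0331 to 0.489). The sedentary intron difference was 4.37 points (3.59 to 5.14) and the distal intergenic one -3.88 points (-4.60 to -3.16). Both had the same sign as in exercised mice and were larger. For promoters, exons and the 5′ UTR the sign was opposite between the conditions.

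On each side, peaks without an overlap on the other side outnumbered those with one. A right peak overlapped 46.0% of left peaks by at least 1 bp (5594 peaks, 45.1 to 46.9%), and a left peak overlapped 42.4% of right peaks (5818 peaks, 41.6 to 43.2%). Peaks that overlapped were wider, with a median of 2024 bp against 1674 bp for left peaks without an overlap, and 1723 against 1503 bp on the right. With each list cut into 5 equal classes of width, 74.0% of the widest left class, from 2589 bp, were overlapped (72.3 to 75.7%), against 33.0% of the left class of 1410 to 1650 bp (31.2 to 34.9%). The right shares in the same classes, widest and second narrowest, were 66.8% (65.0 to 68.6%) and 32.7% (31.0 to 34.5%). Of the peaks of 5 kb or wider, 92.7% on the left and 95.4% on the right were overlapped. By annotation, left peaks within 1 kb of a start site had the highest share, 54.6% (52.7 to 56.6%), against 45.1% (43.3 to 46.9%) for right peaks of that class, and introns 41.6 and 40.6%.

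**Figure D2:**
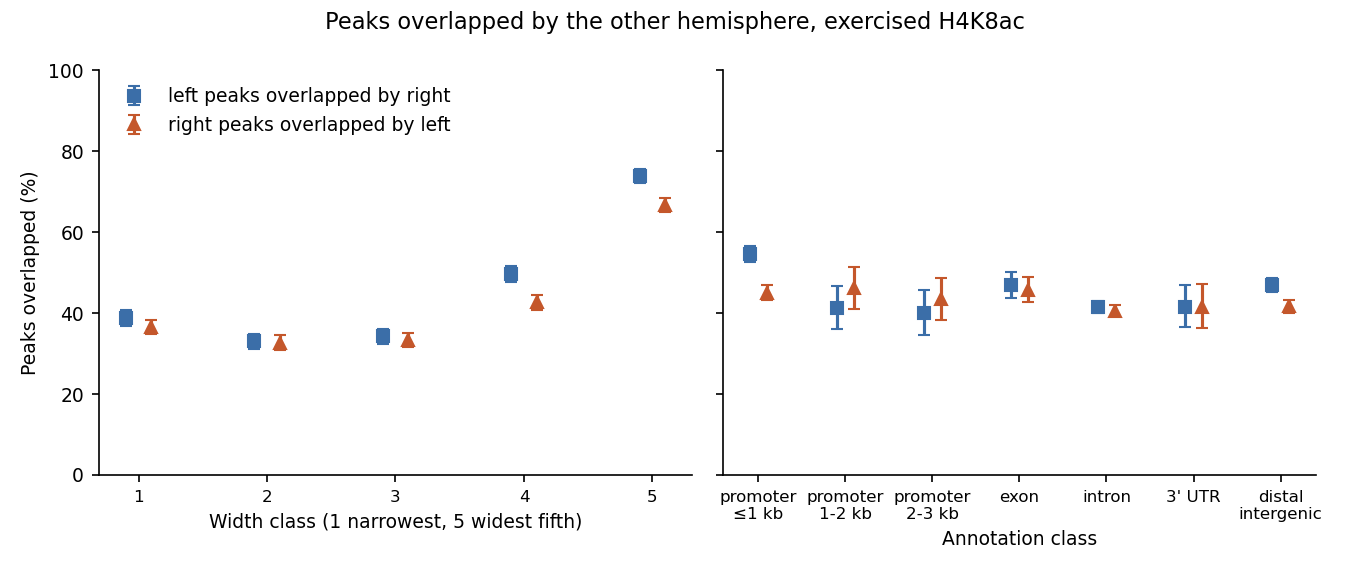
Percent of exercised H4K8ac peaks overlapped by at least 1 bp by the other side, by 5 equal classes of peak width (left panel) and annotation class (right panel). Squares are left peaks, triangles right peaks and bars 95% Wilson intervals over peaks. Both sides have their highest value in the widest class, 74.0% on the left and 66.8% on the right.

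Overlapping peaks often did not share their edges. The median reciprocal overlap, the smaller of the 2 shares that peaks of a pair cover of each other, was 56.8% from the left and 55.8% from the right, and the centres lay a median of 486 and 510 bp apart. With a reciprocal overlap of 50% required, 28.3% of left and 25.1% of right peaks were shared (3441 pairs). With a gap of up to 1000 bp allowed, the shares were 50.4 and 46.4%. The closest promoter pairs were at Klhl5 (99.5% reciprocal overlap, 2082 and 2091 bp), Stmn2, Inhba (98.2%), which encodes a subunit of activin, 1700073E17Rik (98.0%) and Nop56 (97.8%), a ribosome biogenesis factor. The first 4 pairs were also found in all of the 4 other H4K8ac lists, and the Nop56 peak in 2 of them.

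The 3 widest peaks of each list were each largely covered by peaks of the other list. The widest left peak covered 41266 bp at the promoter of Tcf4, a basic helix-loop-helix factor of neuronal development, of which right peaks covered 73.9%. The next were a distal peak assigned to Ccnh, 21177 bp on the left (chr13:84743922-84765098) and 19372 bp on the right (chr13:84745766-84765137), and a peak at the Gm17750 promoter, 18824 bp on the left (chr13:84050604-84069427) and 17606 bp on the right (chr13:84050222-84067827). The third widest right peak, 14864 bp (chr12:86798509-86813372, assigned to Lrrc74a), was covered to 89.1% by left peaks. Each of these peaks was found in all of the 4 other H4K8ac lists.

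The amount of shared sequence was set beside that of the other pairs of H4K8ac lists. The Jaccard index, the bases in both lists over the bases in either, was 0.211 for exercised left and right, rank 9 of the 15 pairs, the other 14 lying between 0.183 and 0.334. With the widest 12168 peaks of each list, the index was 0.204, rank 14 of 15. This cut kept the whole exercised left list and most of the exercised right list. Of the longer lists, with 25159 to 38136 peaks, it kept only the widest peaks. Wide peaks overlapped more often, so ranks at an equal number compare unlike parts of the lists. At this equal number the exercised left list shared more with sedentary right (0.248), exercised SIT (0.242) and sedentary left (0.240) than with exercised right, whereas the sedentary left and right lists had an index of 0.300, rank 2. The exercised right list had 0.221 with sedentary right, 0.209 with sedentary left and 0.207 with exercised SIT, each above its index with exercised left, and 0.192 with sedentary SIT, below it. On chromosomes 1 to 14, with the widest 10310 peaks of each list, the index of exercised left and right was 0.207, again rank 14, and that of sedentary left and right 0.323, rank 1. No interval belongs to these indices, since each list is 1 unit.

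**Figure D3:**
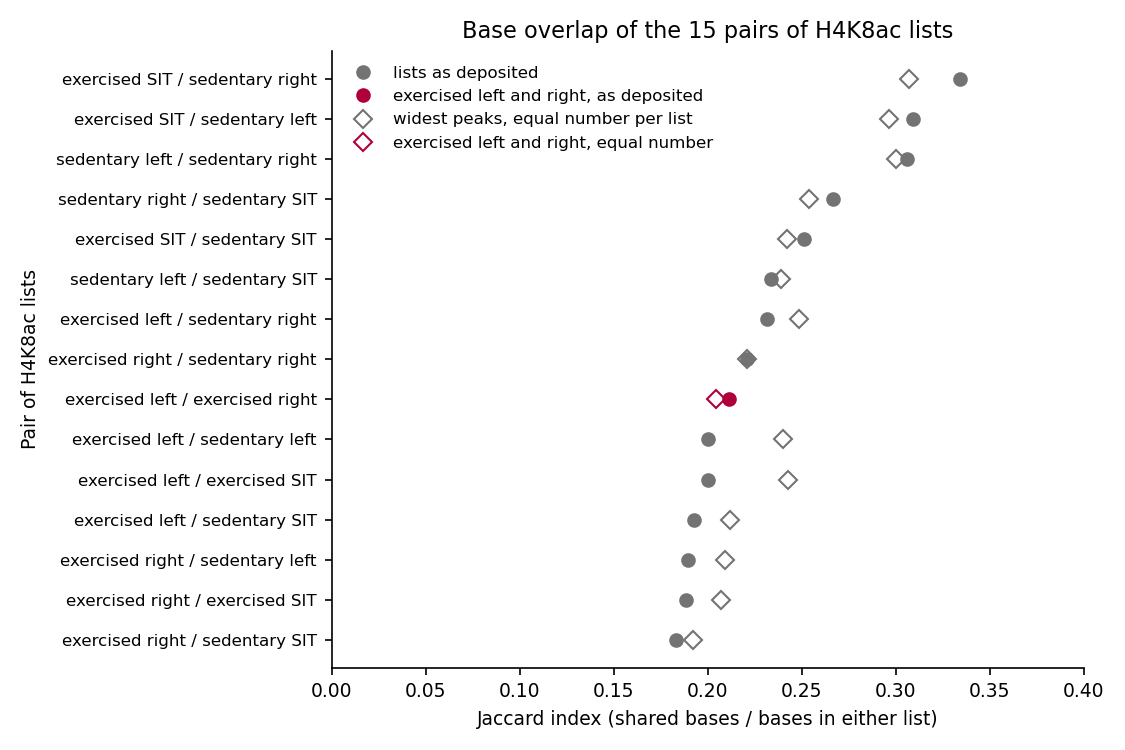
Jaccard index (shared bases over bases in either list) of each of the 15 pairs of H4K8ac lists. Circles are lists as deposited and diamonds the widest 12168 peaks of each list, with exercised left and right in red, at 0.211 and 0.204.

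Peaks listed on 1 side only were in large part found elsewhere in the series. Of the left peaks with no right overlap, 68.1% (67.0 to 69.2%) were in the exercised SIT list, 60.1% in sedentary left, 54.3% in sedentary right and 48.8% in sedentary SIT. Of the right peaks with no left overlap, the shares were 66.6% (65.6 to 67.7%), 59.3%, 53.8% and 46.6% in the same order. The order of the 4 lists was thus the same for both sides, and right-only peaks were found in the sedentary left list more often than in the sedentary right list. The sedentary left list held 36425 peaks and the sedentary right list 25159. Peaks shared by the sides were found in each of these lists more often, between 76.9 and 93.6%. At least 1 of the 4 lists held 87.5% of left-only peaks and 86.3% of right-only peaks, and with the widest 12168 peaks of every list 63.7% (62.6 to 64.8%) and 58.5% (57.4 to 59.7%).

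Peaks of the exercised left list found in none of the other 5 H4K8ac lists numbered 823 (6.76%, 6.33 to 7.22%), and those of the right list 1078 (7.86%, 7.42 to 8.32%). Their median widths were 1653 and 1496 bp, close to the 1674 and 1503 bp of all peaks without an overlap on the other side. Of these peaks 17.0% on the left and 20.8% on the right lay at promoters, below the promoter share of the whole lists, and 48.1 and 43.9% in introns. The repressive mark H3K27me3, mapped in the same exercised groups, overlapped between 0.0456 and 0.342% of the peaks of either side, taken as shared or unshared, the highest share being that of unshared right peaks with left H3K27me3 (27 of 7897, 0.235 to 0.497%).

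**Figure D4:**
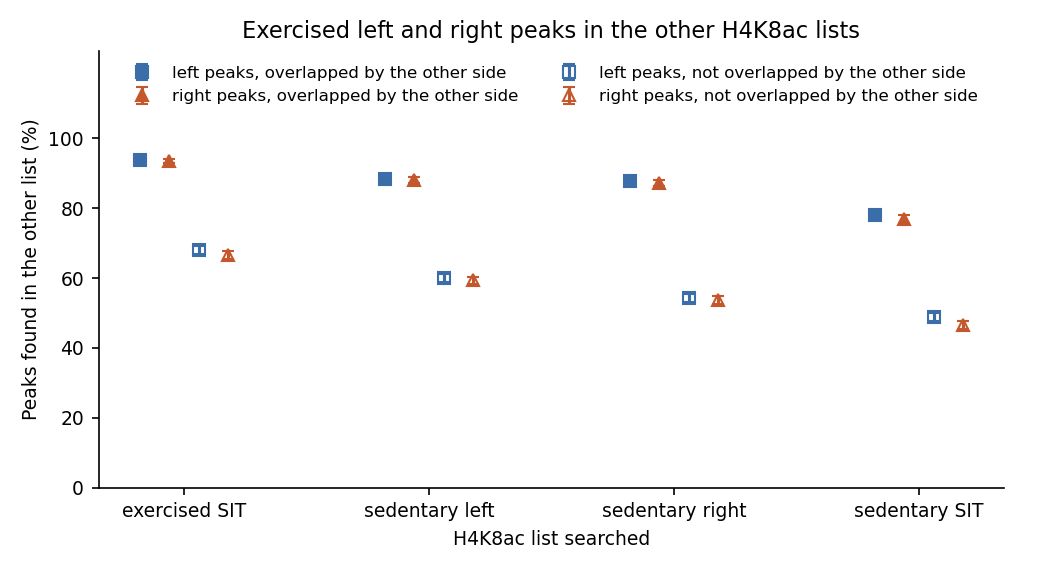
Percent of exercised left (squares) and right (triangles) H4K8ac peaks found in each of the other 4 H4K8ac lists. Filled symbols are peaks overlapped by the other side, open symbols peaks that are not, and bars 95% Wilson intervals over peaks. Open symbols lie between 46.6 and 68.1% and filled symbols between 76.9 and 93.6%.

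The sequence of the peaks was then compared, using GRCm38. Non-promoter peaks had a median GC content of 44.3% where a left peak was overlapped and 43.6% where it was not, against 44.4 and 42.7% for right peaks. At promoters, the ratio of observed to expected CG dinucleotides had a median of 0.311 in left-only peaks (quartiles 0.215 and 0.485) and 0.386 in right-only peaks (0.243 and 0.547), with 0.350 and 0.356 in overlapped left and right peaks. The quartile ranges overlapped widely.

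Short motifs of activity-regulated and general promoter factors were counted in the central 300 bp of each peak on both strands without mismatch, leaving out 1 left peak outside chromosomes 1 to 19 and X. They were the AP-1 site TGANTCA, the CRE TGACGTCA, the E-box CAGATG, the GC box GGGCGGG and the NRF1 site TGCGCATG, which do not contain each other. AP-1 is the dimer of Fos and Jun proteins, and CRE is the site of CREB. The AP-1 letters were in 9.36% of left-only peaks (615 of 6573, 8.68 to 10.1%) and 11.4% of right-only peaks (899 of 7897, 10.7 to 12.1%), a difference of -2.03 points (-3.02 to -1.03). The difference was -2.36 points (-3.54 to -1.17) outside promoters and -1.44 points (-3.16 to 0.339) at promoters. Over whole lists the share was 9.56% on the left and 10.96% on the right, on either side of the 9.99 to 10.3% of the other 4 H4K8ac lists. The left-only minus right-only difference was -2.12 points without the sparse stretch and -2.51 points on chromosomes 1 to 14. The E-box was in 1641 left-only (24.97%) and 1869 right-only peaks (23.7%), the GC box in 3.51 and 3.85% and the CRE in 0.243 and 0.367% of them, each with an interval of the difference that included 0. The NRF1 site was in 0.319 and 0.570%, a difference of -0.250 points (-0.472 to -0.0289), whose interval included 0 both at promoters (-0.811 to 0.212) and outside them (-0.481 to 0.0231). Of 32817 RefSeq promoter windows of 300 bp, 7.81% held the AP-1 letters, 17.2% the E-box, 25.6% the GC box, 1.79% the CRE and 2.12% the NRF1 site. These windows compare with promoter peaks and not with all peaks. At promoters the AP-1 letters were in 6.62% of left-only and 8.06% of right-only peaks, on either side of the window share. The E-box was in 21.3 and 19.9% of them and the GC box in 8.51 and 9.41%. A match is a stretch of letters and not a bound site.

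At the level of genes, 7187 symbols had a peak in at least one of the lists. A gene was counted where the submitters' annotation assigned it a peak as the gene with the nearest start site, and 30.7% of left and 31.3% of right peaks lay more than 50 kb from that start. Of these genes 3706 were in both lists, 51.6% of all, 1395 in the left list only, 19.4%, and 2086 in the right list only, 29%. Genes on 1 side mostly rested on a single peak, 84.3% of left-only and 85.4% of right-only genes, whereas genes of both lists had a median of 4 peaks over the sides together. Of the 3706 genes of both lists, 725 (19.6%) had no left peak that overlapped a right peak of the same gene. Where a gene had exactly 1 peak on each side, the peaks overlapped in 884 of 1194 genes (74.0%, 71.5 to 76.4%). The sparse stretch held 167 right-only genes (8.01%) and 5 left-only genes (0.358%), and without it the counts were 3669, 1390 and 1919. With at least 2 peaks required, 1574 genes were in both lists, 624 on the left only and 837 on the right only.

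Genes absent from one exercised list were usually present in the other lists. Of left-only genes 86.3% were in exercised SIT, 80.5% in sedentary left, 71.5% in sedentary right and 69.7% in sedentary SIT. Of right-only genes the shares were 83.7, 79.7, 68.2 and 67.3% in the same order, and of genes in both exercised lists 98.4, 97.1, 95.3 and 92.8%.

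Genes listed on a single side in exercised mice were then followed into the sedentary lists. Of the 1395 left-only genes, 370 were on 1 side only in the sedentary lists, 248 of them on the left, 67.0% (62.1 to 71.6%). Of the 2086 right-only genes, 562 were, 401 of them also on the left, 71.4% (67.5 to 74.9%). Genes of both exercised lists gave 67.0%, and all genes with a sedentary peak on a single side 72.8% (3032 of 4162), the sedentary left list being the longer. The share for left-only minus that for right-only genes was -4.33 points (-10.4 to 1.68). Without the sparse stretch it was -6.64 points (-12.8 to -0.586), on chromosomes 1 to 14 -2.57 points (-9.19 to 3.87), and with the widest 50% of each list 3.11 points (-3.47 to 9.50). In all, 409 of 932 genes (43.9%) were on the same side in both conditions.

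Among left-only genes with no overlapping peak, 1219 in number with predicted symbols left out, Ippk, the kinase that makes inositol hexakisphosphate, covered the most sequence. It had 4 left peaks covering 14032 bp and no right peak, of which one covered 9153 bp (chr13:49454568-49463720, 3′ UTR). Elmo2 had 5 left peaks covering 10971 bp, 4 of them at promoters. Adcy1, the calcium-stimulated adenylyl cyclase of hippocampal synapses, had 5 left peaks covering 7467 bp, each annotated as distal intergenic. Cacna1h, a T-type calcium channel, had 3 peaks and 8917 bp. Other genes of this group were Parm1 (9825 bp), Rerg, a Ras-like protein (9451 bp), Sipa1l3 (8947 bp), the let-7 microRNA gene Mirlet7c-1 (8399 bp) and the receptor tyrosine phosphatase Ptpra (8308 bp). Each of these genes had peaks on both sides in sedentary mice, Adcy1 with 4 on the left and 7 on the right, and in both SIT lists.

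Among 1805 such right-only genes, Trpm3, a cation channel, led with 9 right peaks covering 16952 bp. Trpm3, Slc14a2 (a urea transporter, 10312 bp) and Neto1 (an auxiliary subunit of kainate receptors, 8661 bp) lay in the sparse stretch of the left list. Outside it, Cntn4 had 7 right peaks covering 9340 bp, Cblb 5 covering 9220 bp, and Kcnc2, a fast voltage-gated potassium channel, 5 covering 9057 bp. Tapt1 had 6 peaks, 3 of them at promoters (8770 bp), and Jak1, a kinase of cytokine signalling, 4 (8453 bp). Hrnr (8435 bp) and Speer3 (8973 bp) completed the 10, Speer3 being a member of a family of near-identical copies whose reads can be misplaced. Each had peaks on both sides in sedentary mice, Cntn4 with 23 on the left and 8 on the right.

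Genes with no overlapping peak on the same single side in both conditions were 219 of 1219 on the left and 133 of 1805 on the right, to be read beside the 72.8% of all genes on a single sedentary side that were on the left. The widest on the left were Eps15l1, an endocytosis protein, with 6201 bp, and Arid1b and Smarcd3, subunits of the BAF chromatin remodelling complex, with 4 peaks (5764 bp) and 2 peaks (4158 bp), beside Dhx32 (4679 bp). Fos had 2 left peaks covering 4403 bp, at -17175 bp from its start (chr12:85454405-85456715) and at chr12:85486119-85488210, both distal intergenic, with 1 sedentary left peak and none on the right. On the right they were Cabyr (3944 bp), Rp1 (3651 bp), Utp23 (3306 bp), Sptlc2, an enzyme of sphingolipid synthesis (3277 bp), and Ptpn5, the striatal-enriched tyrosine phosphatase STEP, which had a promoter peak (chr7:47132582-47134028) and a second peak in an intron (3474 bp in all).

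Of the genes on both sides, the 10 that covered the most sequence on their smaller side each had 16 or more peaks per side. Tcf4 had 41 left peaks covering 184241 bp and 48 right peaks covering 122867 bp. Celf2 had 40 and 51 peaks (81507 and 96297 bp), Anks1b 43 and 39 (107910 and 79582 bp), and Bcl11a, a transcription factor of cortical neurons, 16 and 25 (87430 and 68780 bp). The others were Prkd1 (22 and 28 peaks), Msra (35 and 29), St6galnac3 (38 and 30), Celf4 (34 and 26), the cadherin Cdh11 (42 and 33) and the uncharacterised 5730522E02Rik (29 and 36). Some genes on both sides differed in number: Dlg2, the scaffold PSD-93, had 22 left and 10 right peaks, of which 5 left peaks were overlapped. Zeb2, a zinc-finger repressor, had 18 and 31, Ppfia2, a presynaptic liprin, 5 and 17, and Mettl15 4 and 16. These 4 were picked for that difference, and their numbers are a description.

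Lists of genes fixed for hippocampal tissue were read against all 21900 RefSeq protein-coding genes, of which 14.3% were in both lists, 5.51% in the left only, 8.09% in the right only and 72.1% in neither. The 21 lists held 432 different genes, 114 of them in both lists, 21 on the left only and 34 on the right only. The labelled cell type was checked first. Of 12 markers of excitatory neurons 10 were in both lists, Slc17a7, the vesicular glutamate transporter, was on the right only. Rbfox3, which encodes NeuN, had 13 left peaks and 5 right peaks (35983 and 9483 bp), Bcl11b 12 and 9, Mef2c 8 and 10, and Neurod1 1 wide left peak (7677 bp) and 5 right peaks (7503 bp). Emx1 itself had 1 left and 2 right peaks at different places. Of the subfield markers 6 of 13 were in both lists, among them Grik4 and Calb1, C1ql2 and Fibcd1 were on the left only, Pcp4 on the right only, and Prox1, the factor of dentate granule cells, in neither, although Prox1 was in each of the 4 other H4K8ac lists.

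Markers of other cells had from 5 of 8 (endothelial) to 7 of 9 (microglial) members in neither list, shares on either side of the 72.1% of all protein-coding genes. In both lists were 2 of 12 interneuron genes (Sst and Dlx2), 2 of 10 astrocyte genes (Aqp4 and Slc1a2), 2 of 10 oligodendrocyte lineage genes (Mbp and Cspg4), 1 of 9 microglial genes (P2ry12) and 1 of 8 endothelial genes (Pecam1). On 1 side only were Gja1 and Kdr (left) and Npy, Mog, Csf1r and Cdh5 (right). Npy had 4 right peaks and none on the left. Gad1, Gad2, Slc32a1, Gfap, Olig1, Olig2, Cx3cr1 and Cldn5, which define these cells, were in neither list. Mbp had 2 left and 10 right peaks, all in the sparse stretch. The part of these cells in the differences between the sides was not tested.

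**Figure D5:**
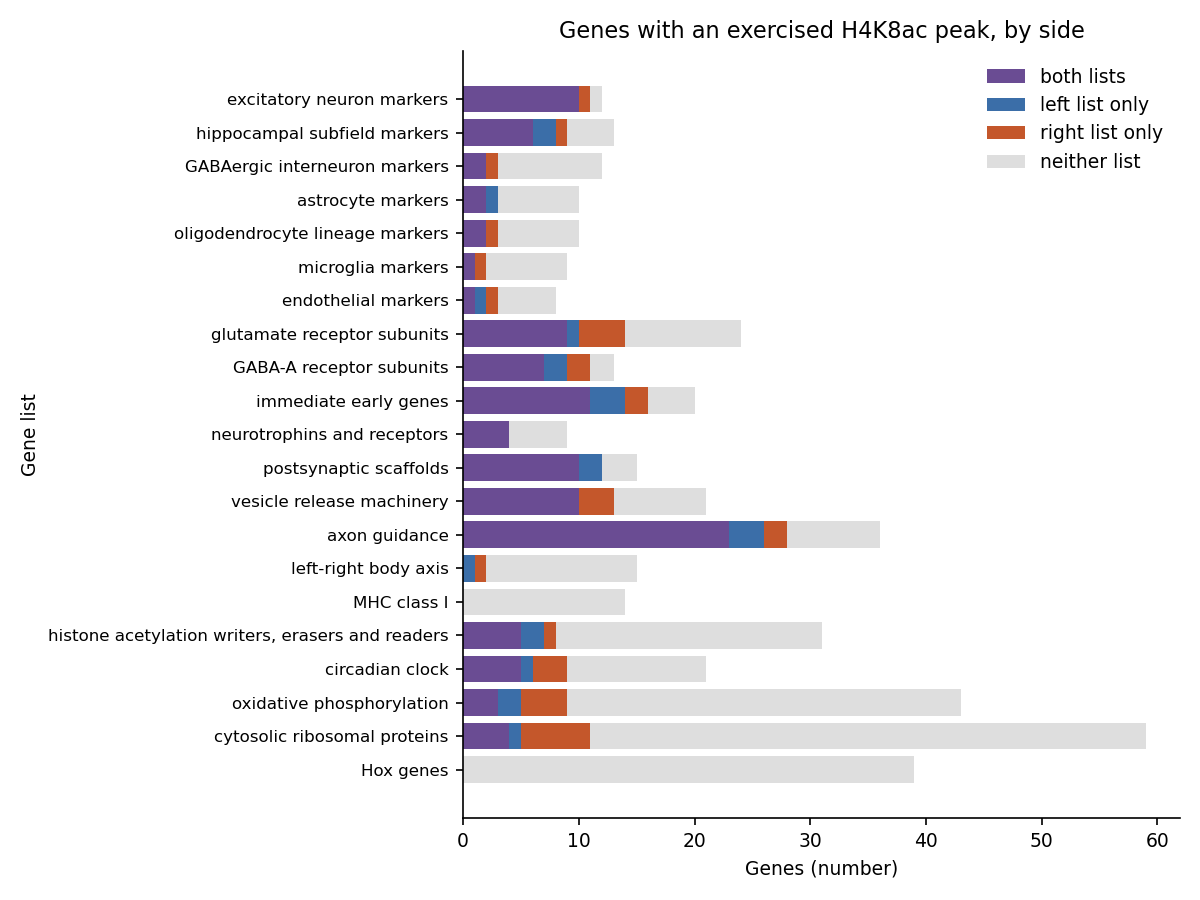
Number of genes of each of 21 lists with an exercised H4K8ac peak in both lists, in the left only, in the right only or in neither. Excitatory neuron markers were in both lists for 10 of 12 genes, and MHC class I and Hox genes in neither list.

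Of 20 immediate early genes, which neuronal activity switches on within minutes, 11 were in both lists. Jun had 5 left and 7 right peaks (14824 and 13858 bp), Nr4a3 6 and 8, Egr3 4 and 4, and Arc, a regulator of synaptic strength, 2 and 3. Nr4a1, a nuclear receptor, had 1 peak on each side with a reciprocal overlap of 53.5% (left chr15:101241388-101243027, 1640 bp, and right chr15:101240918-101242265, 1348 bp). Fos, Fosb and Homer1 were on the left only, with 2, 1 and 1 peaks, and Egr2 and Npas4 on the right only with 1 peak each, that of Npas4 in the sparse stretch. Jund, Egr4, Dusp1 and Gadd45b were in neither list.

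Of 9 neurotrophins and their receptors, 4 were in both lists and 5 in neither. Bdnf, the neurotrophin best known for its rise with exercise, had 9 left peaks covering 16464 bp and 6 right peaks covering 11079 bp. There were 2 overlapping pairs among these, too few peaks to set against the 46.0 and 42.4% overlapped in the whole lists, one annotated to a promoter (left chr2:109678803-109680023 and right chr2:109678583-109679774, reciprocal overlap 79.6%) and one in distal DNA (62.5%). The widest left Bdnf peak, 2589 bp (chr2:109694961-109697549), lay at a promoter, as did a right peak of 2105 bp (chr2:109690636-109692740), and neither had a counterpart on the other side. The left peak was found in all of the 4 other H4K8ac lists and the right peak in 3. Ntrk2, the Bdnf receptor, had 4 left and 3 right peaks (11901 and 3953 bp), Sort1, which sorts pro-Bdnf, 5 and 4, and Ntrk3 5 and 3.

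Of 24 glutamate receptor subunits, 9 were in both lists, Grik3 was on the left only, and Gria3, Gria4, Grm5 and Grm8 on the right only with 1 peak each, that of Gria3 in the sparse stretch. Gria2, which sets the calcium permeability of AMPA receptors, had 20 left and 18 right peaks (43821 and 28589 bp) and Grik2 23 and 28. Grin2b, the gene of GluN2B, had 2 peaks on each side (3784 and 3394 bp): a distal pair that overlapped (chr6:136240175-136242571 and chr6:136239847-136241066, reciprocal overlap 37.2%), a second distal left peak, and a right peak in intron 2 (chr6:136051140-136053313) found in none of the other 4 lists. Of 13 GABA-A receptor subunits 7 were in both lists, led by Gabrb1 (16 and 13 peaks), with Gabra5 and Gabrd on the left only and Gabrg1 and Gabrg3 on the right only.

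Among postsynaptic scaffolds 10 of 15 genes were in both lists, such as Dlgap1 (16 left and 26 right peaks), and Homer1 and Homer2 were on the left only. Of the vesicle release genes 10 of 21 were in both lists, led by the calcium sensor Syt1 (23 and 21 peaks), and Syn1, Unc13b and Sv2b were on the right only, Syn1 in the sparse stretch. Of 36 axon guidance genes 23 were in both lists, with Slit3 (21 and 25 peaks), Nrp2 (17 and 21) and Epha7 (15 and 16) foremost. Slit2, Sema3c and Plxna1 were on the left only and Slit1 and Ephb1 on the right only, Slit1 again in the sparse stretch. Dcc, a netrin receptor, had 3 left and 13 right peaks, and Epha4 11 and 5.

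Of the genes of the left-right body axis, which set the asymmetry of the embryo, 13 of 15 were in neither list, against 72.1% of all protein-coding genes, and the sedentary left list held 7 of the 15, sedentary right 4, exercised SIT 4 and sedentary SIT 3. Pkd2 was on the left only, with 1 peak in an intron. No member of the 14 MHC class I genes or of the 39 Hox genes was in either list. Of 31 genes for histone acetylation 5 were in both lists, with Hdac9 at 14 peaks per side, Hdac2 and Hdac7 on the left only and Sirt6 on the right only. Of 21 clock genes 5 were in both lists, with Per1 on the left only and Per2, Cry1 and Bhlhe40 on the right only. Of 43 oxidative phosphorylation genes 3 were in both lists, 2 on the left only and 4 on the right only, and of 59 cytosolic ribosomal protein genes 4, 1 and 6. When promoter peaks alone were counted, 54 of the 432 genes were in both lists, 16 on the left only and 36 on the right only. Over all genes listed under that rule, 1550 were in both lists, 997 on the left only and 1499 on the right only.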

How the data were processed

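H4K8ac and H3K27me3 were mapped by CUT&RUN-seq in Emx1-tagged hippocampal nuclei, and samples were grouped by the antibody, condition, isolation and side in the labels. Per the methods and the submitters' processing notes, the authors aligned reads to mm10 with Bowtie2 2.4.1, called peaks with SEACR (stringent, threshold 0.01), annotated them with ChIPseeker 1.8.6 with promoters of 3 kb on either side of a start site, and took symbols from biomaRt. The authors dropped exercised H4K8ac libraries with a high false discovery rate, in the separate isolation as many as one side had samples, and in addition 1 of SIT. Which libraries stand behind each list, and how they were combined, is not given in the sources used here. IgG controls were not analysed here, and 8 of the 12 deposited lists were used.

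Per the file headers, the deposited tables list for every peak its chromosome, start, end, width in bp, annotation, distance to a start site and symbol, which 0.230% of left and 0.226% of right peaks lacked. They hold no height or depth, so the precision of a peak is unknown. Coordinates are printed as listed. One left entry starts at 0, so starts may count from 0.

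Overlap meant at least 1 bp. Shares carry 95% Wilson and differences 95% Newcombe intervals. The sparse stretch was placed at the highest likelihood of a single change in the share of left peaks along the genome. Alternatives were equal numbers of peaks by width, each list's widest 50%, chromosomes 1 to 19 and X, reciprocal overlap of 50%, gaps of 1000 bp, shares of bases and stricter gene rules. The alternatives without the sparse stretch and on chromosomes 1 to 14, and those of the AP-1 share were chosen after seeing the data.

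Members, lists and named genes were chosen with earlier results of these data known. Named were the 10 genes per side with the greatest summed width and no overlapping peak (predicted symbols left out), the 10 of both sides by the smaller sum, the 3 widest peaks per list, the 5 closest promoter pairs, the 5 genes per side that kept the side in sedentary mice, up to 4 members per list and side, and Emx1, Bdnf, Prox1, Nr4a1 and Grin2b. Some genes that these rules select are not reported here. Sequences and promoter windows came from RefSeq's GRCm38.p6 tables and genome. Interval functions were tested on simulated data and matched base-by-base counts in 20 of 20 sets. The analysis used Python 3.11.15, numpy 2.4.6, pandas 2.3.3, scipy 1.17.1 and matplotlib 3.10.9.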

Additional observations from a re-analysis of the deposited data

Results flagged for a closer look

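Several left-right differences pointed one way in exercised and the other way in sedentary mice, and none of these opposite directions was tested, since each list is 1 unit. The ratio of left to right peaks was 0.887 in exercised and 1.45 in sedentary mice, and the ratio of listed genes was 0.881 and 1.23. The median peak was 203.5 bp wider on the left in exercised mice, and the sedentary difference was -427 bp. The promoter share of the left list minus that of the right was -1.25 points in exercised and 0.204 points in sedentary mice, the latter with an interval of -0.486 to 0.890 that included 0. The same difference for exons was 0.457 points (-0.183 to 1.10) in exercised and -0.808 points (-1.24 to -0.376) in sedentary mice.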

How the results depend on the processing

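No paired analysis was possible because the lists do not separate samples, and for the same reason no replicate could be left out. Of the values recomputed for the main comparisons, 62 stayed within the margin set for them (the interval of the reported value or, without one, the same rounded value, and for gene counts a limited fold), 29 moved past it and 3 changed sign, beside 2 changes of sign of the intron difference, which is counted apart. With the widest 50% of each list, the covered length ratio was 1.09, the Jaccard index 0.183, the shared peaks 37.8% on the left and 34.7% on the right, the genes of both lists 1985, the promoter difference 0.592 points, the intron difference -0.422 points and the repeat of the side 3.11 points, the last 3 with changed sign. With equal numbers of the widest peaks, the Jaccard index was 0.204, the shared left peaks 41.8%, the width difference 138.5 bp, the repeat of the side 1.27 points with changed sign, and unshared peaks found elsewhere 63.7 and 58.5%. The promoter difference was then -0.386 points with an interval (-1.48 to 0.708) that included 0. A reciprocal overlap of 50% gave 28.3 and 25.1% shared and 68.5 and 67.5% found elsewhere, and a gap of 1000 bp 50.4 and 46.4% shared. By covered bases the promoter difference was -0.0440 points and the intron difference -0.133 points, the latter with changed sign. Promoter peaks alone gave 1550 genes in both lists and 54 listed members, and at least 2 peaks 1574, 624 and 837 genes. Without the sparse stretch, the covered length ratio was 1.07, the Jaccard index 0.213 and the width difference 199 bp. On chromosomes 1 to 14 alone these were 1.06, 0.213 and 199 bp, and the shared right peaks 43.3%. The cause of these shifts was not tested, beyond fewer peaks or bases by construction. Depth behind the lists is unknown, and a peak absent from a list is not shown to be absent from the chromatin.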
